A study of Mus musculus with 18 samples.

Results

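Among 18 arrays of mouse mammary gland RNA, 8 were low in skeletal muscle transcripts and 10 were rich in them, and these classes are compared here. Arrays were selected on measured values: an array was placed in the low class where the mean log2 ratio of Ckm, Acta1, Tnnt3, Myl1 and Atp2a1 was under -2. The series holds whole mammary glands of virgin female mice, either RonTK+/+ or RonTK-/-, which lack the tyrosine kinase domain of the receptor Ron. Glands were taken at 5, 6 or 7 weeks of age, with 3 arrays for each genotype and age. The labels do not say which of a mouse's glands was taken or whether the 3 arrays of a group came from separate animals, so the spread between arrays may be technical.

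Arrays are named by genotype, age and number. The low class held the RonTK+/+ 5-week array 2, 6-week arrays 2 and 3 and 7-week array 2, and the RonTK-/- 5-week array 3 and 6-week arrays 1, 2 and 3. It thus had 4 arrays of each genotype, with 2 at 5 weeks, 5 at 6 weeks and 1 at 7 weeks. The rich class had 5 arrays of each genotype, with 4 at 5 weeks, 1 at 6 weeks and 5 at 7 weeks. Both classes were present in 4 of the 6 groups (12 arrays), while all 3 RonTK-/- arrays at 7 weeks were rich. The classes were made from the data and are not conditions of the study, so the p-values below say only how closely other transcripts went with the muscle class in these 18 arrays.

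Mice have several pairs of mammary glands along the body, from the chest to the groin. The thoracic glands lie against skeletal muscle of the chest and shoulder, and the inguinal glands lie in a fat pad that holds a lymph node. Cells along the trunk keep a record of their position in the Hox genes, transcription factor genes in 4 clusters (A to D): paralogue groups with low numbers are active towards the head and those with high numbers towards the tail. Lymph nodes hold B cell follicles, T cell zones, stromal cells that make chemokines and specialised venules through which lymphocytes enter.

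Values are log2 of the deposited ratio, in which 0 stands for the RonTK+/+ median in most probe sets. The choice of arrays fixed the muscle genes, so these are given as values without a test. Ckm, muscle creatine kinase, had log2 ratios from -4.68 to -3.29 (median -4.18) in the low arrays and from 0.00 to 0.83 (median 0.49) in the rich arrays. Acta1, skeletal muscle actin, ran from -6.64 to -2.57 against 0.00 to 0.17. Tnnt3, a troponin of fast fibres, ran from -6.64 to -4.28 against -0.01 to 0.50, and -6.64 is the lowest value in the table. The mean of the 5 genes was -3.24 in RonTK+/+ 6-week array 3, just inside the threshold, and 0.00 in RonTK+/+ 5-week array 1, just outside it. Of 209 measured genes on a skeletal muscle list of 235, 205 had a lower fitted value in the low arrays, with a median difference of -2.16.

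The promoters of the muscle genes are shown because these genes mark the classes. In the 300 bases around the RefSeq start (GRCm38.p6), each of the 4 marker genes with an entry held the letters CAGCTG, an E-box that reads the same on both strands. It was found in 64 of 174 skeletal muscle list genes with an entry (36.8%), in 3 of 17 B lymphocyte list genes, in 4 of 20 T lymphocyte list genes and in 18.3% of all 27025 genes in the table. A match is a description of the letters. In the Ckm promoter (chr7:19410844-19411143, plus strand) and the Acta1 promoter (chr8:123894726-123895025, minus strand), capitals mark the E-box.
Ckm: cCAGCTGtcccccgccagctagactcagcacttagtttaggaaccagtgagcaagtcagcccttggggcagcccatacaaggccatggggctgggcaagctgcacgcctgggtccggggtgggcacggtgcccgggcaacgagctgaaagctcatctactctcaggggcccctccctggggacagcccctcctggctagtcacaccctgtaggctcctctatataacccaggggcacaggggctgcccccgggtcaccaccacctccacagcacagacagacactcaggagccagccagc
Acta1: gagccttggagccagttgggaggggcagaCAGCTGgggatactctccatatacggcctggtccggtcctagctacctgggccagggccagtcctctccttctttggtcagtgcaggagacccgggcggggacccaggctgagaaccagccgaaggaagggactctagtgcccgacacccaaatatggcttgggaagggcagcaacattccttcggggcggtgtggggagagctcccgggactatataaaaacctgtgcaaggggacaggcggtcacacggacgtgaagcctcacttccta

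Outside muscle, the plainest differences were in lymph node and positional genes. Arrays low in muscle were higher in genes of B cells, T cells and lymph node stroma and in Hoxc10, and lower in Hoxd8, Tbx15 and Isl1. Many genes of ducts and milk were also lower, but they overlapped between classes, and fewer were lower in the RonTK+/+ arrays alone. Most lymphocyte and lymph node genes overlapped too. Every low array lay above every rich array in 4 of 23 B lymphocyte, 1 of 25 T lymphocyte and 5 of 21 lymph node genes. Over all genes this share was 2.76%. The comparison was made within the 6 groups of genotype and age with limma, and a gene was called at a Benjamini-Hochberg adjusted p under 0.05 over 18193 genes. Of these, 5591 were called (30.7%), 2863 higher (15.7%) and 2728 lower (15%) in the low arrays. Most differences were small, since 3837 of the genes called outside the muscle list differed by less than 0.5 on the log2 scale. With the muscle list left out, 15.9% of genes were called higher and 14.1% lower, and 310 genes were at least 2-fold higher and 230 at least 2-fold lower. The classes did not overlap in 1393 genes (7.66%), 502 higher (2.76%) and 891 lower (4.9%). RNA came from whole glands, so fewer cells of a type and less RNA per cell cannot be told apart. Muscle transcripts differed with every gene described below, by the definition of the classes, and their part in those differences was not tested.

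**Figure D1:**
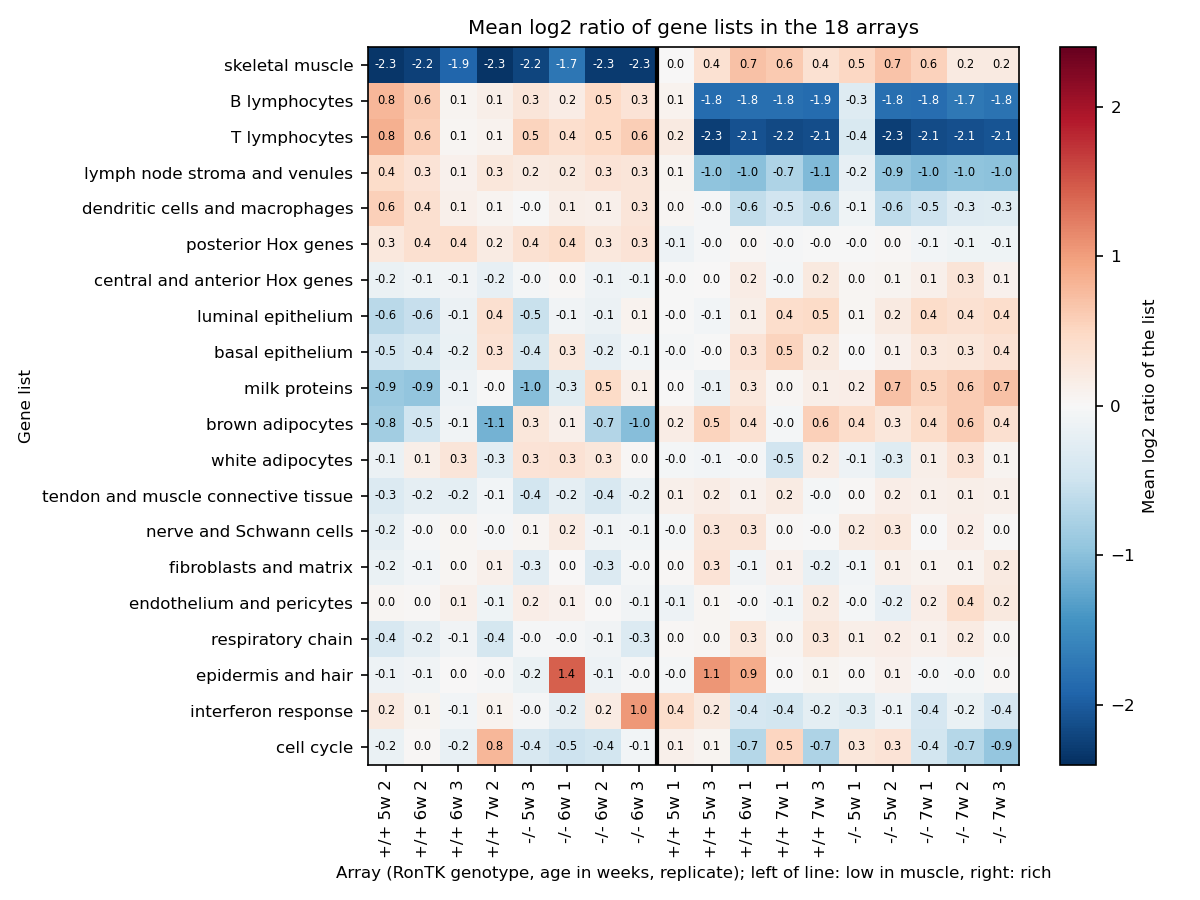
Mean log2 ratio of the measured members of 20 gene lists (rows) in each of the 18 arrays (columns, named by RonTK genotype, age in weeks and array number), with the value printed in each cell; the black line parts the 8 arrays low in muscle from the 10 rich ones. B and T lymphocyte rows are near or above 0 in the low arrays and far below 0 in the rich arrays apart from array 1 of each genotype at 5 weeks.

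B lymphocyte genes were higher in the low arrays for 22 of 23 measured members (15.7% of all genes were higher), with a median difference of 1.36 against -0.01 over all genes. The mean log2 ratio of the list ran from 0.06 to 0.79 (median 0.31) in the low arrays and from -1.86 to 0.09 (median -1.81) in the rich arrays. Ms4a1, which encodes the B cell surface protein CD20, had log2 ratios from 0.00 to 1.04 (median 0.49) in the low arrays and from -4.41 to 0.07 (median -4.20) in the rich arrays. Its difference was 3.84 ± 0.74 (SE, limma adjusted p = 0.00134), or 14.3-fold. Cr2, a complement receptor of B cells and follicular dendritic cells, ran from 0.24 to 1.08 against -3.10 to 0.00, and the classes did not overlap. It differed by 2.82 ± 0.46 (adjusted p = 0.000431). Cd79a, part of the B cell receptor, differed by 1.10 ± 0.18 (adjusted p = 0.00044), and Spib, a transcription factor gene of B cells, by 2.27 ± 0.38 (adjusted p = 0.000483). The list member that was not called was Vpreb3.

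T lymphocyte genes were higher for 24 of 25 measured members, against 15.7% over all genes, with a median difference of 1.92. The list mean ran from 0.05 to 0.85 (median 0.51) in the low arrays and from -2.27 to 0.22 (median -2.12) in the rich arrays. Cd3g, a chain of the T cell receptor complex, had log2 ratios from 0.00 to 1.11 (median 0.69) in the low arrays and from -4.87 to 0.37 (median -4.17) in the rich arrays, and differed by 3.96 ± 0.80 (adjusted p = 0.00187). Ccr7, the receptor that guides naive T cells and dendritic cells into lymph nodes, ran from 0.00 to 1.09 against -2.88 to 0.10. Its difference was 2.63 ± 0.40 (adjusted p = 0.000257). Il7r, the receptor for the survival factor IL-7, differed by 3.86 ± 0.71 (adjusted p = 0.000981) and its classes did not overlap. Cd8a differed by 1.64 ± 0.28 and Cd4 by 0.68 ± 0.12 (adjusted p = 0.000687 and 0.0006). Cd3e differed by 0.79 ± 0.20 (adjusted p = 0.00976), and its call was lost without RonTK+/+ 5-week array 2 (adjusted p = 0.0623). Thy1 was the member not called.

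Genes of lymph node stroma and venules were higher for 13 of 21 measured members and lower for 0 (1 had an unadjusted p under 0.05). Over all genes 15.7% were higher and 15% lower. The median difference of the list was 0.50, with 16 of 21 members above 0 and 8 not called. Glycam1 is made by the high endothelial venules of lymph nodes and also by the lactating mammary epithelium. It had log2 ratios from 0.00 to 0.62 (median 0.35) in the 8 low arrays. In the rich arrays it was at 0.29 in RonTK+/+ 5-week array 1 and -0.24 in RonTK-/- 5-week array 1 and at -5.29 or lower in the other 8. The difference passed the test (4.95 ± 1.08, adjusted p = 0.00321); it is a fitted value, since some of the rich arrays were at the lowest deposited ratio of 0.01. Cxcl13, the chemokine that draws B cells into follicles, ran from 0.13 to 1.04 (median 0.42) in the low arrays and from -3.41 to 0.00 (median -2.71) in the rich arrays. It differed by 2.75 ± 0.35 (adjusted p = 6.69e-05), and the classes did not overlap. Bst1, a surface enzyme found on lymphoid stroma, differed by 1.40 ± 0.16 (adjusted p = 2.06e-05). Ltb, the lymphotoxin subunit that keeps lymphoid tissue organised, differed by 3.19 ± 0.66, and Il7, the T cell survival factor, by 0.87 ± 0.16 (adjusted p = 0.00219 and 0.000904). Clu, abundant in follicular dendritic cells, differed by 1.22 ± 0.24, Tnfsf13b, the B cell survival factor BAFF, by 0.60 ± 0.09, Lta, a lymphotoxin, by 0.60 ± 0.10, and St6gal1, a sialyltransferase, by 0.50 ± 0.07 (adjusted p of 0.00178 or lower in each). Madcam1, a venule addressin, and Fut7, which makes selectin ligands, each differed by 0.37 ± 0.11 (adjusted p = 0.0238 and 0.0167). Madcam1 was lost without RonTK+/+ 5-week array 2 or RonTK+/+ 7-week array 2 (adjusted p up to 0.108), and Fut7 without RonTK+/+ 5-week array 2 or RonTK+/+ 6-week array 1 (up to 0.0917). Mfge8, a phagocytosis factor also secreted in milk, was called at 0.24 ± 0.09 (adjusted p = 0.0464) and was lost in 12 of 18 fits without 1 array (up to 0.159).

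Array 1 of each genotype at 5 weeks was rich in muscle and also held lymph node transcripts. The B lymphocyte means of these arrays (RonTK+/+, then RonTK-/-) were 0.09 and -0.31, against -1.86 to -1.71 in the other 8 rich arrays. Their T lymphocyte means were 0.22 and -0.37, against -2.27 to -2.08, and their means for lymph node stroma were 0.07 and -0.19, against -1.06 to -0.74. With both arrays left out, 22 B and 24 T lymphocyte genes and 14 lymph node genes were higher, and the median differences were 1.66, 2.41 and 0.55. Muscle and lymph node transcripts thus did not exclude each other within an array. RonTK+/+ 5-week array 1 also had a ratio of 1 (within 1e-04) in 20.6% of probe sets, more than any other array, and its value of 0.00 often means no more than that it is the reference.

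**Figure D2:**
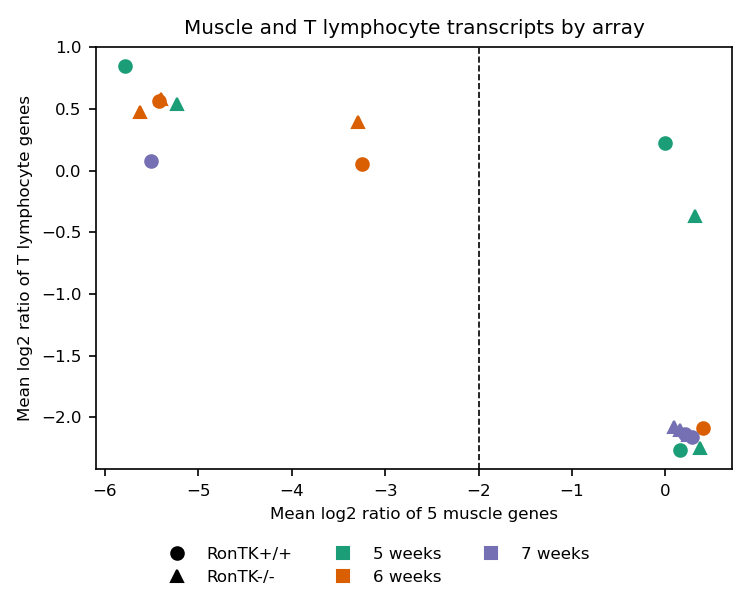
Mean log2 ratio of the 5 muscle genes that set the classes (horizontal axis, dashed line at the threshold of -2) against the mean log2 ratio of 25 T lymphocyte genes (vertical axis), 1 point for each of the 18 arrays, with shape for genotype and colour for age. The 8 low arrays lie at the upper left, 8 rich arrays at the lower right, and array 1 of each genotype at 5 weeks at the upper right (0.22 and -0.37 on the vertical axis).

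Other immune lists moved less far. Dendritic cell and macrophage genes were higher for 15 of 27 measured members and lower for 0 (median difference 0.39), against 15.7% and 15% over all genes. They included Cd207, the langerin of Langerhans cells, at 1.50 ± 0.25 (adjusted p = 0.000446), the chemokine gene Ccl22 at 1.04 ± 0.17 (0.000431), the macrophage lysozyme gene Lyz2 at 0.90 ± 0.13 (0.000197), and H2-Ab1, a class II antigen-presenting chain, at 1.41 ± 0.28 (0.0017). Of 11 plasma cell genes, Mzb1 (1.39 ± 0.29, adjusted p = 0.00234) and Igk (0.24 ± 0.06, adjusted p = 0.011) were higher, a share near the 15.7% over all genes, and Igk was lost without RonTK+/+ 6-week array 1 (adjusted p = 0.078). Without RonTK+/+ 7-week array 2, 4 plasma cell genes were higher. Germinal centre genes were higher for 2 of 8, against 15.7% over all genes, with a list median difference of 0.02. These 2 were Gcsam (0.50 ± 0.09) and Fas (0.41 ± 0.09). Lymphatic endothelial genes were higher for 2 of 9, against 15.7% over all genes. Both were scavenger receptor genes of lymphatic sinuses: Stab2 at 0.85 ± 0.23 and Marco at 1.60 ± 0.46 (adjusted p = 0.012 and 0.0164). Stab2 and Marco were lost without RonTK+/+ 6-week array 1 or RonTK+/+ 7-week array 2, and Marco also without RonTK+/+ 5-week array 2 (adjusted p up to 0.0652 and 0.0762). Without RonTK+/+ 7-week array 3, 2 lymphatic genes were called lower. Interferon response genes were higher for 3 of 21, a share near the 15.7% over all genes, with Cxcl9, a chemokine for T cells, at 0.89 ± 0.19 (adjusted p = 0.0026), and the other two were the guanylate-binding protein genes Gbp2 and Gbp3. Gbp3 was lost without RonTK-/- 5-week array 3 or RonTK+/+ 7-week array 2 (adjusted p up to 0.0605). The interferon count was 5 without RonTK-/- 6-week array 1 or RonTK+/+ 5-week array 1, 5 without array 1 of both genotypes at 5 weeks, and 6 without RonTK-/- 6-week array 3, when 1 other gene was lower. Of 29 cell cycle genes, limma called 0 (1 higher and 1 lower had an unadjusted p under 0.05), and leaving out 1 array gave 0 to 1 in each direction.

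Some positional genes parted the classes with no overlap, while most Hox genes were not called. Hoxc10, a Hox gene of the lumbar trunk and hind limb, had log2 ratios from 3.04 to 4.03 (median 3.42) in the 8 low arrays and from -0.46 to 0.01 (median -0.20) in the 10 rich arrays. The lowest low array thus lay far above the highest rich array. The difference was 3.67 ± 0.16 (adjusted p = 9.13e-10), or 12.7-fold, with a 95% interval from 3.33 to 4.01. Hoxc10 was known to follow these classes when they were proposed, so its test is no independent support. Within the groups that held both classes it was 3.87 for RonTK-/- at 5 weeks, and 3.42, 4.02 and 3.38 for RonTK+/+ at 5, 6 and 7 weeks. RonTK+/+ 5-week array 1 and RonTK-/- 5-week array 1, which held lymph node transcripts, had Hoxc10 at -0.45 and -0.23, within the range of the other rich arrays.

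Across the 33 Hox genes measured, 6 were higher and 7 lower in the low arrays, against 15.7% and 15% over all genes. Hoxa10 ran from 0.41 to 0.74 in the low arrays and from -0.33 to 0.00 in the rich arrays, and differed by 0.69 ± 0.05 (adjusted p = 1.95e-07). Hoxa9 differed by 0.54 ± 0.07 and Hoxc9 by 0.50 ± 0.06 (adjusted p = 4.16e-05 and 4.44e-05), and neither overlapped between classes. The 2 probe sets of Hoxa9 differed by 1.02 and 0.05, and 1 of the 2 was called. Hoxd10 was higher by 0.29 ± 0.09 (adjusted p = 0.0217) and Hoxc8 by 0.65 ± 0.17 (adjusted p = 0.00938). Both calls were lost without RonTK-/- 5-week array 3 or RonTK+/+ 6-week array 1, and that of Hoxd10 also without RonTK+/+ 5-week array 2 (adjusted p up to 0.107 for Hoxd10 and 0.0611 for Hoxc8).

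In the opposite direction, Hoxd8 ran from -1.26 to -0.73 (median -0.96) in the low arrays and from 0.00 to 0.65 (median 0.37) in the rich arrays. It fell by 1.45 ± 0.09 (adjusted p = 3.36e-08), or 2.74-fold. Its neighbour Hoxd9 fell by 0.69 ± 0.10 (adjusted p = 0.000249), so that Hoxd8 and Hoxd9 moved opposite to Hoxc8, Hoxc9 and Hoxa9 of the same paralogue groups. Hoxc4, Hoxa5 and Hoxc5 fell by 0.89 ± 0.10, 0.76 ± 0.08 and 0.52 ± 0.08 (adjusted p = 1.71e-05, 1.23e-05 and 0.000397). Hoxa4 fell by 0.30 ± 0.08 (adjusted p = 0.00801) and was lost without RonTK+/+ 6-week array 1 (0.051). Hoxc6 fell by 0.15 ± 0.05 (adjusted p = 0.0281) and was lost without RonTK+/+ 5-week array 2, RonTK+/+ 6-week array 1 or 2, or RonTK+/+ 7-week array 2 (adjusted p up to 0.162).

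By paralogue group, spans chosen after the values were seen, groups 1 to 7 had 17 measured genes with 0 higher and 5 lower. Groups 8 to 10 had 9 with 6 higher and 2 lower, and groups 11 to 13 had 7, of which limma called 0 (1 had an unadjusted p under 0.05). In the C cluster 6 of 7 genes were called, with the 3 lower ones in groups 4 to 6 and the 3 higher ones in groups 8 to 10. In the B cluster limma called 0 of 9, and 0 had an unadjusted p under 0.05. Split instead into the lists used here, 5 of 14 posterior Hox genes (groups 9 to 13) were higher and 1 lower (median difference -0.01; 2 lower without array 1 of either genotype at 5 weeks), and 1 of 19 central and anterior Hox genes was higher and 6 lower (median -0.08), against 15.7% higher and 15% lower over all genes.

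**Figure D3:**
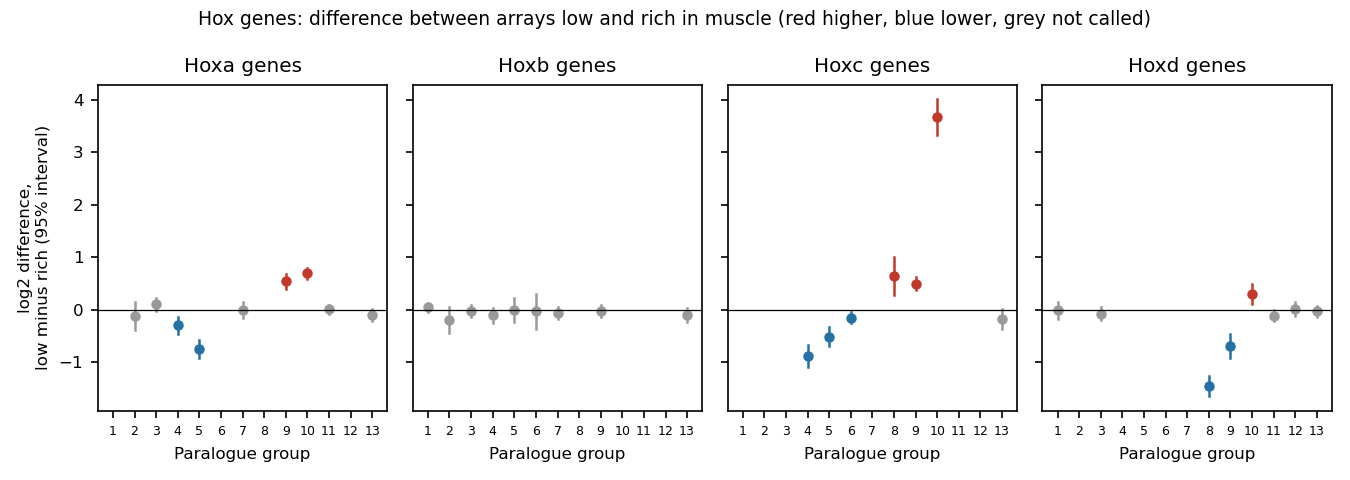
Fitted log2 difference, arrays low minus arrays rich in muscle, with its 95% interval (vertical axis), for each measured Hox gene by paralogue group (horizontal axis) in the 4 clusters; red genes were higher, blue lower and grey not called. Hoxc10 stands at 3.67, and in the C cluster the lower genes lie in groups 4 to 6 and the higher in groups 8 to 10.

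Of 17 measured genes on a list of limb level and mesenchymal position genes, 2 were higher and 6 lower, against 15.7% and 15% over all genes. Tbx15, a T-box gene of trunk and limb mesenchyme and of some fat depots, had log2 ratios from -1.40 to -1.08 (median -1.26) in the low arrays and from -0.06 to 1.02 (median 0.40) in the rich arrays. It fell by 1.80 ± 0.12 (adjusted p = 5.86e-08), with no overlap. Isl1, a LIM homeobox gene, ran from -2.10 to -1.01 (median -1.90) against 0.07 to 0.78 (median 0.52) and fell by 2.40 ± 0.16 (adjusted p = 8.09e-08). RonTK-/- 6-week array 1 was the highest of the low arrays for Isl1 and still lay below every rich array. Tbx4, best known from the hind limb, fell by 0.49 ± 0.05 (adjusted p = 1.69e-05); its 2 probe sets differed by -0.88 and -0.09, and 1 of them was called. Tbx3, a mammary and limb gene, fell by 0.25 ± 0.06 and Lmx1b, a gene of dorsal limb identity, by 0.30 ± 0.07 (adjusted p = 0.00845 and 0.00548). Pitx1, a hind limb gene, fell by 0.15 ± 0.05 (adjusted p = 0.0285) and was lost without any of the RonTK+/+ arrays at 6 weeks or RonTK+/+ 7-week array 2 (up to 0.191). Shox2, a proximal limb gene, rose by 0.51 ± 0.09 (adjusted p = 0.000537), and Hoxc10 was the other gene that rose. Tbx5, the forelimb T-box gene, differed by -0.08 ± 0.04 and did not pass (adjusted p = 0.163).

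Over the 18 arrays, the 8 non-Hox genes with the profile most like that of Hoxc10 had a Pearson r from 0.900 to 0.924. They were Shox2 (0.924), Invs (0.923), Il12b (0.910), Ubxn2b (0.908), Nipsnap3b (0.905), Igfbp4 (0.903), Rbm4b (0.901) and Pikfyve (0.900). These values mostly restate the step between the classes, which all 18 points share. Within the 8 low arrays r to Hoxc10 ran from -0.41 for Ubxn2b to 0.89 for Igfbp4, and within the 10 rich arrays from -0.70 for Ubxn2b to 0.50 for Igfbp4.

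**Figure D4:**
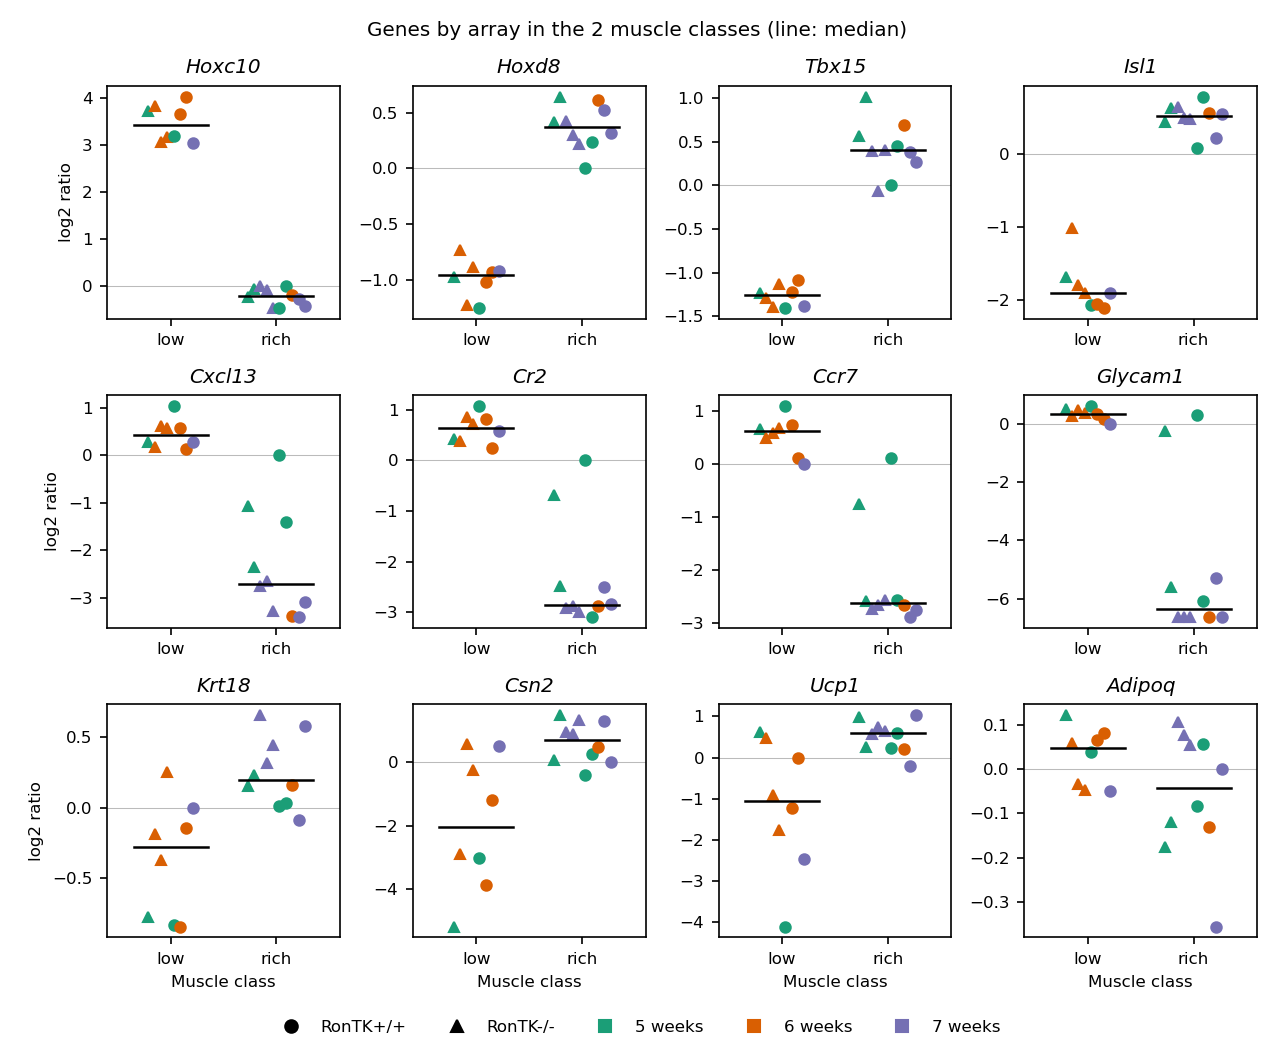
Log2 ratio (vertical axes) of 12 genes in the 8 arrays low and the 10 arrays rich in muscle, 1 point for each array, with shape for genotype, colour for age and a line at the class median. Hoxc10, Hoxd8, Tbx15, Isl1, Cxcl13 and Cr2 do not overlap between classes, while Ccr7, Glycam1, Krt18, Csn2, Ucp1 and Adipoq do.

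Genes of white fat differed little. Of 22 measured members, 4 were higher and 1 lower (median difference 0.17), against 15.7% and 15% over all genes. The lower member is on the muscle list, which set the classes. Among the 20 members outside it, 4 were higher and 0 lower, against 15.9% and 14.1% of all genes outside it. The mean of the white fat list ran from -0.26 to 0.34 in the low arrays and from -0.46 to 0.32 in the rich arrays. Adipoq, the adiponectin gene, ran from -0.05 to 0.12 against -0.36 to 0.11, and its difference of 0.16 ± 0.06 did not pass (adjusted p = 0.0517). Lep, the leptin gene, differed by 0.50 ± 0.34 and Cidec, a lipid droplet gene, by 0.29 ± 0.19, and neither passed (adjusted p = 0.293 and 0.289). Pck1, a gene of glyceroneogenesis, was higher by 0.67 ± 0.17 (adjusted p = 0.00868) and was lost without RonTK+/+ 6-week array 1 (0.0621). Slc2a4, the insulin-responsive glucose transporter that skeletal muscle also makes, ran from -0.68 to 0.47 against 0.00 to 1.05 and is given as values without a test, since it is on the muscle list. The count of higher members was 1 without RonTK-/- 5-week array 3, 0 without RonTK+/+ 6-week array 1, 2 without RonTK+/+ 6-week array 3, 9 without RonTK+/+ 7-week array 3, and 1 without array 1 of both genotypes at 5 weeks. RNA was extracted after a spin to remove fat, per the labels' protocols.

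Of 18 measured brown fat genes 4 are also on the muscle list, which set the classes. Outside it, 2 of 14 were lower, Ucp1 and Lhx8, and 0 higher (0 at an unadjusted p under 0.05), a share near the 14.1% lower over all genes outside the muscle list. Ucp1, the uncoupling protein that defines brown fat, had log2 ratios from -4.12 to 0.63 (median -1.07) in the low arrays and from -0.20 to 1.04 (median 0.60) in the rich arrays. It was lowest in RonTK+/+ 5-week array 2 and overlapped the rich class in RonTK-/- 5-week array 3, RonTK-/- 6-week array 1 and RonTK+/+ 6-week array 3. Ucp1 fell by 2.06 ± 0.60 (adjusted p = 0.0176), and this was lost without RonTK+/+ 5-week array 2 or RonTK+/+ 7-week array 2 (adjusted p up to 0.121). Lhx8, a homeobox gene used as a marker of brown fat, ran from -1.11 to -0.30 against 0.00 to 2.02 and fell by 1.64 ± 0.22 (adjusted p = 9.88e-05). Its classes did not overlap. Dio2, the thyroid hormone deiodinase of brown fat, differed by -0.60 ± 0.26 and Cidea, a lipid droplet gene, by -0.48 ± 0.28, and neither passed (adjusted p = 0.101 and 0.225). Cox7a1, a cytochrome oxidase subunit of muscle and brown fat on both lists, ran from -2.96 to -0.48 against 0.00 to 0.58, given as values without a test. Counting the muscle list genes, 6 of 18 were called lower, against 15% over all genes, with a median difference of -0.59. The lower count was 10 without RonTK-/- 5-week array 3, 10 in the RonTK+/+ arrays alone and 10 with class as the single term. The mean of all 18 ran from -1.13 to 0.28 (median -0.58) in the low arrays. In the rich arrays it ran from -0.04 to 0.60 (median 0.39). The 4 muscle list genes are part of these counts and means.

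Epithelial genes were lower in the low arrays but overlapped between classes. Of 36 measured luminal genes 24 were lower and 0 higher (1 had an unadjusted p under 0.05; median difference -0.46), against 15% lower over all genes. The list mean ran from -0.65 to 0.39 (median -0.14) in the low arrays and from -0.07 to 0.46 (median 0.30) in the rich arrays. It was lowest in RonTK+/+ 5-week array 2 and highest in RonTK+/+ 7-week array 2 among the low arrays. Krt18, a keratin of luminal cells, ran from -0.85 to 0.26 (median -0.28) against -0.09 to 0.66 (median 0.19) and fell by 0.68 ± 0.16 (adjusted p = 0.00613). Within groups the Krt18 difference was -0.97 for RonTK-/- at 5 weeks, and -0.86, -0.66 and -0.25 for RonTK+/+ at 5, 6 and 7 weeks. Epcam, an epithelial adhesion gene, fell by 0.44 ± 0.09, Cldn3, a tight junction gene, by 0.47 ± 0.09, Rab25, an epithelial trafficking gene, by 0.42 ± 0.07, and Wnt4, a signal for ductal side branching, by 0.72 ± 0.13 (adjusted p = 0.00283, 0.00101, 0.000322 and 0.000791). Krt8, the partner of Krt18, fell by 0.70 ± 0.21 (adjusted p = 0.0199) and was lost without RonTK-/- 5-week array 3 or RonTK+/+ 5-week array 2 (up to 0.123). Elf5, a transcription factor gene of luminal progenitors, fell by 0.60 ± 0.16 (adjusted p = 0.00997) and was lost without RonTK+/+ 6-week array 1 (0.0635). The luminal count was 12 without RonTK-/- 5-week array 3, RonTK+/+ 5-week array 2 or RonTK+/+ 6-week array 1, each left out alone, and 3 in the 9 RonTK+/+ arrays alone.

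Basal and myoepithelial genes were lower for 11 of 22 measured members and higher for 0 (0 at an unadjusted p under 0.05; median difference -0.35), against 15% lower over all genes. In the RonTK+/+ arrays alone 4 were lower. Oxtr, the oxytocin receptor of myoepithelial cells, differed by -0.57 ± 0.09 (adjusted p = 0.000268) and was not called with class as the single term. Cnn1, a smooth muscle calponin, differed by -0.73 ± 0.16 and Itgb4, an integrin of the basal membrane, by -0.50 ± 0.09 (adjusted p = 0.00286 and 0.00116). Trp63, the basal transcription factor gene, differed by -0.37 ± 0.11 (adjusted p = 0.0165) and was lost without RonTK-/- 5-week array 3, RonTK+/+ 5-week array 2 or RonTK+/+ 6-week array 1 (up to 0.106). Krt5, a basal keratin, differed by -0.72 ± 0.25 (adjusted p = 0.0462) and was lost in 13 of 18 fits without 1 array (up to 0.281), and its partner Krt14 differed by -0.57 ± 0.21 and did not pass (adjusted p = 0.0575). The basal count was 4 without RonTK-/- 5-week array 3, 5 without RonTK+/+ 5-week array 2 or RonTK+/+ 6-week array 1, 6 without RonTK-/- 5-week array 2, and 7 without RonTK+/+ 5-week array 1, RonTK+/+ 6-week array 2, RonTK+/+ 7-week array 1, or array 1 of both genotypes at 5 weeks.

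Milk protein genes were lower for 13 of 20 measured members and higher for 2 (median difference -0.94), against 15% and 15.7% over all genes. The 2 higher genes were Glycam1 and Mfge8, both also on the lymph node list. Csn2, the beta-casein gene, had log2 ratios from -5.16 to 0.56 (median -2.03) in the low arrays and from -0.39 to 1.47 (median 0.68) in the rich arrays. The low arrays spread widely: RonTK-/- 5-week array 3 stood at -5.16, while RonTK-/- 6-week array 2 (0.56), RonTK+/+ 7-week array 2 (0.51) and RonTK-/- 6-week array 3 (-0.25) lay among the rich arrays. Csn2 was 7.99-fold lower (log2 SE 0.81, adjusted p = 0.0118) and Csn1s1, an alpha-casein gene, by 2.30 ± 0.60 (0.0101), and both were lost without RonTK-/- 5-week array 3 (adjusted p = 0.081 and 0.0699). Csn3, the kappa-casein gene, fell by 1.38 ± 0.25 and Btn1a1, a milk fat globule gene, by 0.78 ± 0.14 (adjusted p = 0.000911 and 0.00083). Without RonTK-/- 5-week array 3, 6 milk genes were lower, and in the RonTK+/+ arrays alone 4 were.

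**Figure D5:**
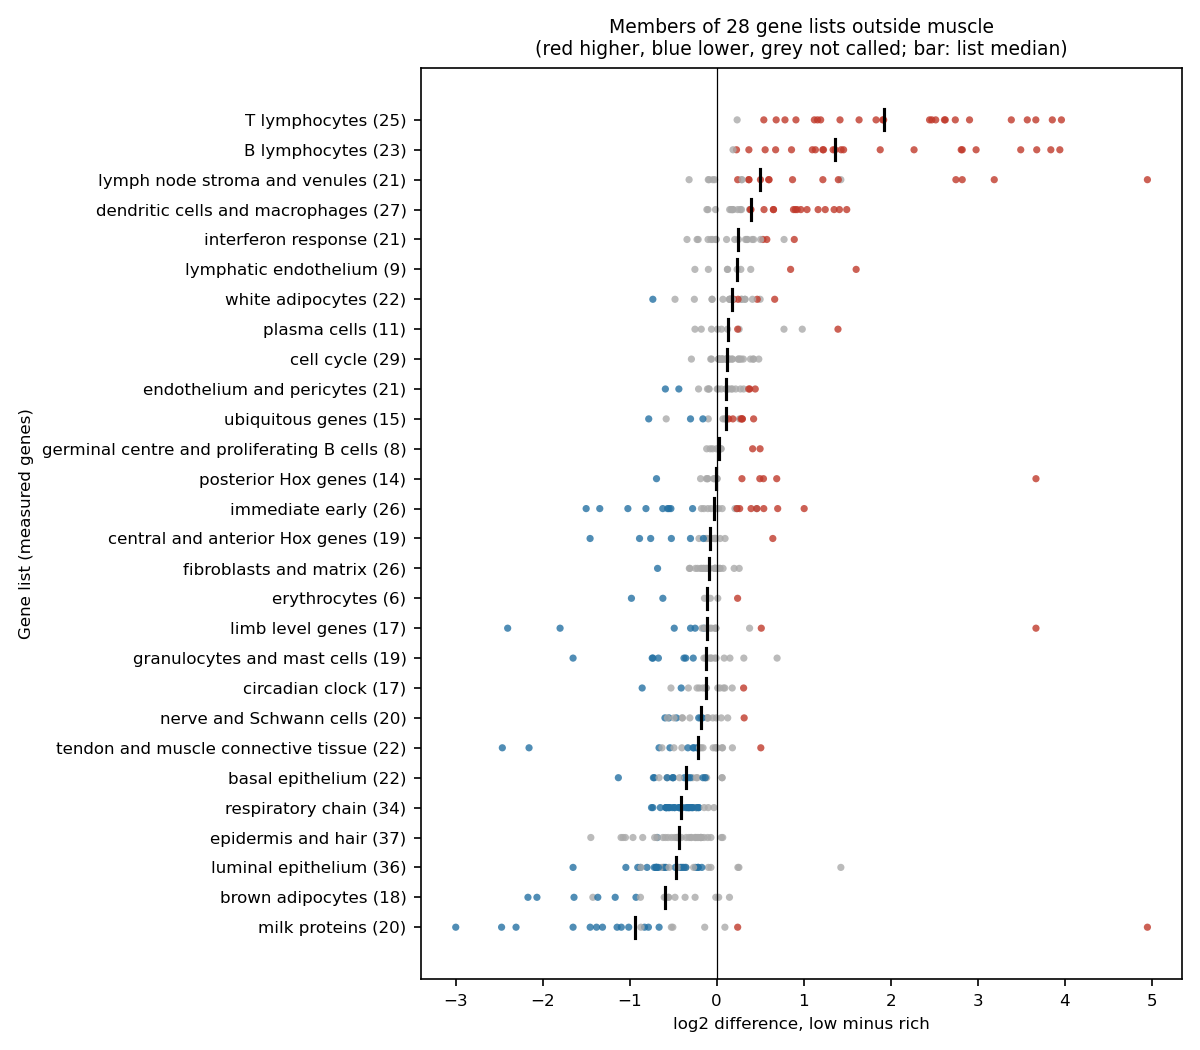
Fitted log2 difference, arrays low minus arrays rich in muscle (horizontal axis), for each measured member of 28 gene lists (rows, with the number measured), ordered by the list median (black bar); red members were higher, blue lower and grey not called. The T and B lymphocyte lists stand at the top (medians 1.92 and 1.36) and milk proteins at the bottom (-0.94).

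Connective tissue showed a narrower difference. Of 22 tendon and muscle connective tissue genes, 8 were lower and 1 higher (median -0.21), against 15% and 15.7% over all genes. Cilp, a cartilage matrix gene, ran from -2.79 to -1.12 in the low arrays and from 0.00 to 0.58 in the rich arrays, and fell by 2.46 ± 0.20 (adjusted p = 9.63e-07). Thbs4, a thrombospondin of tendon and muscle, fell by 2.16 ± 0.18 and Tnmd, the tenomodulin gene, by 0.66 ± 0.07 (adjusted p = 9.67e-07 and 1.17e-05). None of these 3 overlapped between classes. Without RonTK-/- 5-week array 3, 5 tendon genes were lower and 0 higher; without RonTK+/+ 5-week array 2, 0 were higher. Of 26 fibroblast and matrix genes, 1 was lower and 0 higher (1 had an unadjusted p under 0.05), fewer than the 15% and 15.7% over all genes. The lower gene was Mfap4, a microfibril gene, at -0.68 ± 0.15 (adjusted p = 0.00342). The lower count was 3 without RonTK+/+ 7-week array 2 and 2 without RonTK+/+ 7-week array 3, and 1 gene was higher without RonTK+/+ 5-week array 3. Endothelial genes were higher for 3 of 21 and lower for 2, not above the 15.7% and 15% over all genes, with Pecam1, a vessel adhesion gene, at 0.38 ± 0.08 (adjusted p = 0.00178) and Abcc9, a pericyte channel subunit, at -0.59 ± 0.12 (0.00194). Without RonTK-/- 5-week array 3 or RonTK+/+ 6-week array 1 1 was higher and 1 lower, and without array 2 of RonTK+/+ at 5 or 7 weeks 1 was lower.

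Several of the largest rises with no overlap between classes were in further immune genes. Among them were Cd69, an early activation and retention receptor (3.22 ± 0.55, adjusted p = 0.000606), P2ry10, a receptor for lysophospholipids on lymphocytes (3.34 ± 0.59, 0.000749), and Btla, an inhibitory receptor (2.67 ± 0.52, 0.00152). The others were the natural killer receptor gene Klrd1 (2.36), H2-Ob (3.68, on the B lymphocyte list), Myo1g (2.14), Epsti1 (2.02), Il22ra2 (1.92), Gpr65 (1.89) and Gimap8 (1.85), with adjusted p of 0.00295 or lower in each. In the other direction, the largest falls outside the muscle list were in Mlf1 (-5.41), Hjv (-4.67), Smtnl1 (-4.23), Smco1 (-4.20), Cap2 (-4.11), Neu2 (-4.09), Tceal7 (-4.08), Nexn (-3.94), Scn4b (-3.65), Ppp1r14c (-3.60), Nmrk2 (-3.57), Aqp4 (-3.54), Rbfox1 (-3.34), Frzb (-3.32) and Prkag3 (-3.31). Many of these are known from skeletal muscle, which set the classes, so they are given as values without a test. Hjv encodes hemojuvelin, a regulator of iron balance made by muscle and liver, Prkag3 a muscle subunit of AMP kinase, and Aqp4 a water channel of fast fibres.

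The class difference was also compared between genotypes, setting RonTK-/- at 5 weeks, which alone among the RonTK-/- groups held both classes, against the 3 RonTK+/+ groups. Of 18193 genes, limma called 0 (796 had an unadjusted p under 0.05, and the smallest adjusted p was 0.962). A difference between genotypes was therefore not detected, which does not show that the classes differed alike in both. Without RonTK-/- 5-week array 1 1 gene was called, D630039A03Rik (-2.12 ± 0.21, adjusted p = 0.00767); that fit sets 1 low array against 1 rich array in RonTK-/-, assumed to vary like the other groups.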

How the data were processed

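Per the labels' protocols, whole glands were spun to take off the fat, RNA was isolated with TriZol, and 1 amplification round gave biotin-labelled target for Affymetrix mouse arrays. The deposited values are linear ratios, found from the values: every array has a median of 1, and 87.4% of 45101 probe sets have a RonTK+/+ median within 1e-04 of 1. The sources used here do not state how probe sets were summarised and background-corrected, with which software, or in which batches. Absolute levels and signal over background are thus unknown, dim probe sets could not be filtered, and the number of arrays limits the precision.

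Tests ran on log2 ratios with no pseudocount. A gene is the mean over its probe sets with 1 symbol (34945 probe sets; 932 had several symbols, 9160 none, and 64 were controls), which gave 18193 genes; 34741 of the probe sets were matched to a RefSeq table (GRCm38.p6) for names. Limma (3.58.1, R 4.3.3; lmFit, eBayes) was fitted to 18 arrays with a mean for each of 6 groups plus class, with 11 residual and 2.50 prior degrees of freedom. P-values are two-sided with Benjamini-Hochberg adjustment over the 18193 genes, with calls at 0.05. Classes do not overlap where every low array lies on the same side of every rich array. The pseudocount planned for linear intensities was not used, since the values are ratios.

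The array classes and the 30 gene lists were chosen with earlier results of these data known. The rule for named genes takes, outside the muscle list and without overlap between classes, up to 15 called genes that rose most and 15 that fell most (no predicted, RIKEN or unnamed genes), up to 4 members of each list by p plus any member called, the Hox, limb level and lymph node lists whole, 8 genes most like Hoxc10, and up to 5 for class by genotype. The code was tested on simulated data. Whether replicate numbers pair arrays is not known. After group means, 23 of 45 pairs with the same number correlated above 0.1, and 14 of 45 after group means and class. Pairs with different numbers were not compared, so these counts cannot decide it. No 2 arrays were identical. Alternatives covered covariates, groups in the fit, a replicate block, normalization, array weights, probe sets, the lowest values, thresholds and leaving out arrays. Figures used Python 3.11.15 with matplotlib 3.10.9.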

Additional observations from a re-analysis of the deposited data

Results flagged for a closer look

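A gap test (Dixon's, at its 95% critical value) was applied within the 8 low and within the 10 rich arrays to the means of 28 gene lists and to the 30 genes with the largest differences. It found 8 single arrays apart from their class in 116 comparisons, and chance gives about 1 in 20.

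Among the low arrays, RonTK-/- 6-week array 1 had the highest mean of the epidermis and hair list, at 1.44 against 0.00 in the next array. RonTK-/- 6-week array 3 was highest for the interferon response list (1.03 against 0.23) and for the lymphatic endothelium list (0.42 against 0.25). RonTK+/+ 7-week array 2 was highest for the cell cycle list, at 0.79 against 0.03, and the luminal list was also highest there among the low arrays (0.39).

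For single genes, RonTK+/+ 5-week array 2 had the highest Il22ra2, a decoy receptor for IL-22, at 1.27 against 0.66. The other genes set apart are known from muscle or fell with it. Ppp1r14c was highest in RonTK-/- 6-week array 1 (-2.55 against -2.97) and Rbfox1 in RonTK+/+ 6-week array 3 (-2.60 against -2.76). Hjv was lowest among the rich arrays in RonTK+/+ 5-week array 1, at 0.00 against 0.57.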

How the results depend on the processing

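Of 18193 genes, 5591 were called in the class comparison, and this count stayed within 1.5 times under other covariates, groups, scalings, weights and probe set rules. With class alone it was 6443 and with the 9 RonTK+/+ arrays alone 3903, of which 3698 were shared with the genes first called. It was 3573 at an adjusted p under 0.01, and 696 at an adjusted p under 0.05 with a fold of at least 2, with 44.5% of those higher against 51.2% at first. Leaving out 1 array gave 3929 to 6048. The fit with the replicate block gave 4576, and whether the replicate numbers pair the arrays is not known. For class by genotype, leaving out 1 array gave 0 to 1 calls, the fit without RonTK-/- 5-week array 3 was not possible because it removes the low class there, and the replicate block gave 0. No named gene changed its called direction under any alternative; over genes and settings together, 6410 values kept their side of the threshold, 203 lost and 103 gained a call. With the replicate block 3 granulocyte and mast cell genes, 4 basal genes and 1 nerve gene were lower, against 7, 11 and 6, and 4 immediate early and 1 white fat genes were higher, against 7 and 4. The medians of all genes shifted by less than 0.1 under every scaling. Depth cannot be judged from ratios, and values at the lowest ratio of 0.01 have no order.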

Other observations

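Respiratory chain genes, which encode the mitochondrial electron transport complexes and ATP synthase, were lower in the low arrays for 30 of 34 measured members and higher for 0, against 15% lower over all genes, with a median difference of -0.41. Leaving out 1 array gave 28 to 31. Atp5o, an ATP synthase subunit, fell by 0.73 ± 0.07 and Ndufa5, a complex I subunit, by 0.75 ± 0.10, and the classes overlapped in neither. The skeletal muscle list differed in the same arrays by a median of -2.16, and its part in this was not tested. Of 15 measured genes on a list of ubiquitous genes, 6 were higher and 3 lower (median difference 0.11), against 15.7% and 15% over all genes. In all, 60% of that list was called, against 30.7% over all genes. Pgk1, a glycolytic enzyme gene on it, fell by 0.78 ± 0.04, while B2m rose by 0.28 ± 0.05.

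Of 19 granulocyte and mast cell genes, 7 were lower and 0 higher, against 15% and 15.7% over all genes. Tpsab1, a mast cell tryptase, fell by 0.67 ± 0.11 (limma adjusted p = 0.000555), and Cma1, a mast cell chymase, by 0.74 ± 0.18 (adjusted p = 0.00587). Without RonTK+/+ 5-week array 2 4 of the 19 were lower. Immediate early and stress genes moved in both directions, 7 of 26 higher and 9 lower, against 15.7% and 15% over all genes. Klf2, a transcription factor gene of resting T cells and endothelium, rose by 1.01 ± 0.13 (adjusted p = 5.65e-05), while Nr4a1, an orphan nuclear receptor gene, fell by 1.34 ± 0.20 and the heat shock gene Hspa1a by 1.50 ± 0.22 (adjusted p = 0.000215 and 0.000188). Without RonTK+/+ 5-week array 2 or RonTK+/+ 6-week array 1, 3 and 2 of these genes were higher.

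Of 20 nerve and Schwann cell genes, 6 were lower and 1 higher, against 15% and 15.7% over all genes. The higher gene was Cnp, a myelin enzyme gene, by 0.32 ± 0.06 (adjusted p = 0.00196). The lower count was 3 without RonTK+/+ 5-week array 2 and 1 without RonTK+/+ 6-week array 1. Of 37 epidermis and hair genes 1 was lower, fewer than the 15% over all genes, Sprr1a, a cornified envelope gene (-0.68 ± 0.21, adjusted p = 0.0252; lost without RonTK-/- 5-week array 3, RonTK+/+ 5-week array 2 or RonTK+/+ 6-week array 1, up to 0.0986), and leaving out 1 array gave 0 to 4. Of 17 clock genes, 2 were lower, 1 was higher and 14 were not called, against 30.7% called over all genes. The repressor genes Bhlhe40 and Bhlhe41 fell by 0.86 ± 0.16 and 0.41 ± 0.08, and Bhlhe40 was lost with class alone (adjusted p = 0.0554). Arntl, a clock activator gene, rose by 0.31 ± 0.09 (adjusted p = 0.0234) and was lost without RonTK+/+ 6-week array 1 or array 2 of RonTK+/+ at 5 or 7 weeks.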
